A study of Mus musculus with 663 samples.

Results

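Imprinted genes are transcribed mainly from 1 parental copy, and the 33 genes of a listed panel of them were followed here through development of the mouse ovary. All 33 had a row in the deposited table of 43347 gene names, and 31 passed the filter on low values described below. The panel holds 12 genes that are mostly transcribed from the maternal copy and 21 from the paternal copy. The values do not separate the parental copies, so they give each gene's total RNA and say nothing of allelic origin.

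The cells came from XX gonads of mice of mixed background that carry the NR5A1-eGFP transgene, in which the regulatory region of Nr5a1, a nuclear receptor of gonadal somatic cells, drives a green fluorescent protein. Live eGFP-positive cells were sorted, captured on microfluidic chips, and sequenced as full-length polyA cDNA. The stages were, in embryonic days (E), E10.5 with 1 capture, E11.5 with 2, E12.5 with 3, E13.5 with 2, E16.5 with 2 and postnatal day 6 (P6) with 2, without any treatment, and 662 cells in all. A capture, meaning 1 chip run, was the replicate. The number of animals behind a capture is not given in the sources used here, so the spread between captures may be partly technical. The captures belong to 2 series, 1 of which holds E10.5, E11.5, E13.5 and captures 1 and 2 of E12.5 (the first series), while E16.5, P6 and the remaining E12.5 capture form the second. The test of any stage difference took in both series, with a term for the series that rests on E12.5, the only stage in both. Pairs of stages were compared only within a series. E12.5 was therefore represented by capture 3 alone in the comparisons with E16.5 and P6, and that lone capture was taken to vary like the captures of the other stages.

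The second E12.5 capture stood apart. Its estimated depth was 0.148M reads per cell, against 1.89M to 3.20M in the other 11 captures, and transcripts of Y-linked genes were found in 40 of its 53 cells. The label of this capture gives XX gonads as for the others, and Xist was found in 19 of its cells. No comparison between a pair of stages used its mean directly, and it entered those comparisons only through the shared estimate of spread. The test of any stage difference did use its mean, as it took in all 12 captures. Counts are given with and without it below. In the other captures Y-linked transcripts were found in 0 to 4 cells each. Nr5a1 averaged 13.9 to 72.8 RPKM and eGFP 633 to 6596 RPKM in the 12 captures, so the reporter and its gene were found at every stage.

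In the table the unit is RPKM, reads per kilobase of transcript scaled to the read total of the library, so levels can be set side by side between genes. At the median depth of the P6 captures, 1 read of H19 was worth 0.159 and 0.215 RPKM.

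Imprinted genes lie in clusters in which a differentially methylated region sets which copy is read. Many of them act on fetal growth. Igf2 encodes a fetal growth factor, and H19, its neighbour, a long noncoding RNA. Cdkn1c encodes the cyclin-dependent kinase inhibitor p57, and Grb10 encodes an adaptor that dampens insulin and IGF signalling. In the developing ovary the Nr5a1-positive cells include the precursors of granulosa cells, which surround the oocyte, and of stromal and steroid-producing cells.

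H19 lies on chromosome 7 (chr7:142575529-142578143, minus strand, GENCODE vM21 on GRCm38) and is annotated as a lincRNA. The precursor of miR-675 (chr7:142577064-142577147) lies inside it. RefSeq gives the mature arms of this microRNA on GRCm38.p6, printed below with the seed, bases 2 to 8, in capitals. They are shown because the table counts long cDNA fragments, in which reads of H19 and of the Mir675 row cannot be told apart.
mmu-miR-675-5p: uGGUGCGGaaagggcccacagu
mmu-miR-675-3p: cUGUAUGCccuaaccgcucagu
The Mir675 row held a value in no cell in which H19 was 0, in any of the 12 captures. Its capture mean was 0.103 to 0.369 of the H19 mean. It is therefore read here as part of H19, not as the level of the small RNA. Gm27483 and Gm27786, both inside the H19 interval on the other strand, likewise held a value in no cell in which H19 was 0. Whether reads were shared between these rows was not tested.

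Igf2, Mest, Peg3 and Meg3, which carry the P6 results below with H19, have promoter windows in the RefSeq table. Each window spans 250 bases before to 50 after an annotated start. For a gene with several starts the window with the most CpG is shown, and CpG dinucleotides, the sites of DNA methylation, are in capitals. The windows are chr7:142658755-142659054 for Igf2 (minus strand), chr12:109540746-109541045 for Meg3 (plus strand), chr6:30737800-30738099 for Mest (plus strand) and chr7:6730370-6730669 for Peg3 (minus strand), all GRCm38.p6.
Igf2: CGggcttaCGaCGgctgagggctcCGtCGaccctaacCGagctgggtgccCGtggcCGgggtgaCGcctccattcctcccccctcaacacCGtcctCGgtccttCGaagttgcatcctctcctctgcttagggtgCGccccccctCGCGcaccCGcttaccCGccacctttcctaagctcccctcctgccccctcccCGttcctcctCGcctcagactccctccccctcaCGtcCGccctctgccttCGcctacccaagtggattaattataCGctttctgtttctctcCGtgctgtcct
Meg3: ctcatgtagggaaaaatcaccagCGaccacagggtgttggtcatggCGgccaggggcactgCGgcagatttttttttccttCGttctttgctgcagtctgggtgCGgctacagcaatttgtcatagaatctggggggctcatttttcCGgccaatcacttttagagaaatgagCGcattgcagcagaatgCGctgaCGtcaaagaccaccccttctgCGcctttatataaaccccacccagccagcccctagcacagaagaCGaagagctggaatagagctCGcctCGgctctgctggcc
Mest: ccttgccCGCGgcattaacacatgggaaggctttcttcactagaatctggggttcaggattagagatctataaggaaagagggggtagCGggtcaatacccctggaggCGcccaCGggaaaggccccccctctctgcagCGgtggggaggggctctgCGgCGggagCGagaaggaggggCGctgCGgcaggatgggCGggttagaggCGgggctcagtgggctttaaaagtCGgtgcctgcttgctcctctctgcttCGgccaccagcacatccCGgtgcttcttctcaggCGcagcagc
Peg3: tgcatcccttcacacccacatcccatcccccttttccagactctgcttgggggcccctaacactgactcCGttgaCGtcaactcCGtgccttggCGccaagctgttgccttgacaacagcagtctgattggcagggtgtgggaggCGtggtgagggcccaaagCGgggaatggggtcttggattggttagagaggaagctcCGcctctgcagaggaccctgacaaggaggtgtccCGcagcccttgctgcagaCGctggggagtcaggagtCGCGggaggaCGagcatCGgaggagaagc
The Igf2 window holds 24 CpG, the Mest window 17, and the Meg3 and Peg3 windows 13 each. Among all 32851 promoter windows the median was 7, and 19.98%, 31.4% and 37.9% held at least 24, 17 and 13. The GC box GGGCGG, searched on both strands, was found once in the Igf2 and once in the Mest window, and 35.7% of all windows hold it. The TATA motif TATAAA was found in the Meg3 window, 2 matches in all on both strands, and in none of the other 3 windows, against 13.6% of all windows. The start of Usp29, a paternally expressed ubiquitin protease gene, lies 164 bases from that of Peg3 on the opposite strand, inside the Peg3 window. In all, 27 members had 42 windows, with 0 to 45 CpG and a median of 12. H19, Cdkn1c, Rtl1, Peg10, Sgce and Impact were not matched. No methylation was measured, so these letters describe the loci only.

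By P6 several of the most abundant imprinted genes stood at a small part of their fetal level. H19, Igf2, Mest and Meg3 fell between E16.5 and P6, and H19, Igf2, Mest and Peg3 fell between E12.5 and P6. No member rose in either comparison by the test used. The summed RPKM of the 33 members lay between 1705 and 2326 in the earlier captures other than the second E12.5 capture, and was 580 and 642 in the P6 captures. As a share of all RPKM, the panel took 0.430 to 0.562% of a cell's total before birth, leaving the second E12.5 capture aside, and 0.147% and 0.152% at P6. H19, Cdkn1c, Mest and Peg3 made up 56.5 to 72.3% of the panel's sum in those earlier captures and 24.0% and 17.9% at P6.

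**Figure D1:**
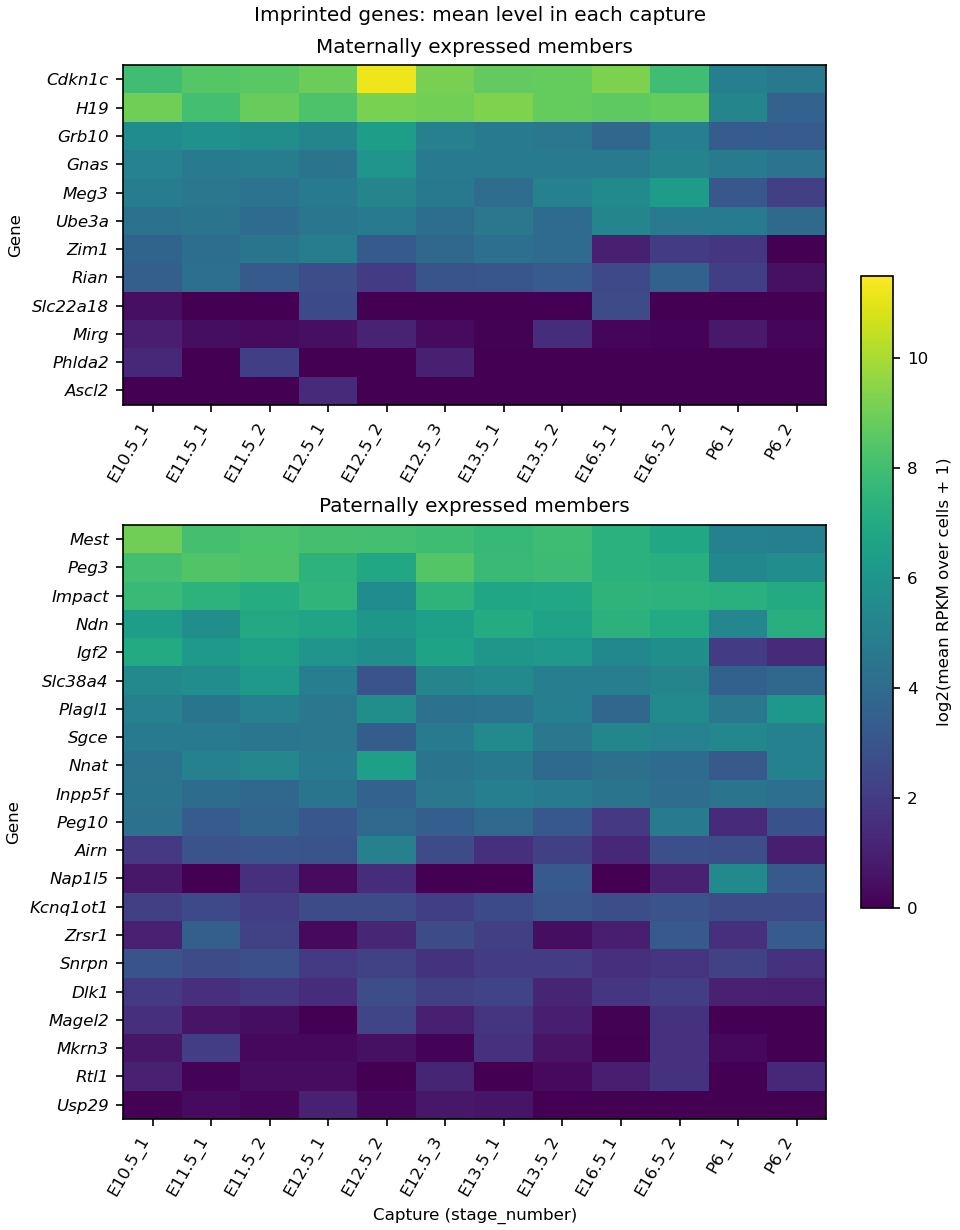
Mean level of each member (rows) in each capture (columns, stage and capture number), as log2 of the mean RPKM over cells plus 1, with maternally expressed members above and paternally expressed members below. The P6 columns are darker for H19, Cdkn1c, Meg3, Mest, Peg3 and Igf2, brighter for Nap1l5, and close to the E16.5 columns for Sgce. For Impact and Gnas they lie slightly below the E16.5 columns.

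H19 had a mean of 506 RPKM in the E10.5 capture, then 269 and 453 at E11.5, 315, 589 and 535 at E12.5, 618 and 433 at E13.5, and 396 and 443 at E16.5. At P6 it had 36.7 and 11.4 RPKM. Both P6 captures lay below every earlier one, and the means at E16.5 and P6, 420 ± 33.5 and 24.1 ± 17.8 RPKM (SD, n = 2 captures each), differed 17.45-fold. In limma's test across 16882 genes the change was -4.28 ± 0.55 (log2 of RPKM + 1, ± SE) with an adjusted p of 0.0135. The fall was in the number of cells as well. H19 reached 1 RPKM in 52 of 55 and 36 of 40 E16.5 cells and in 9.09% (5 of 55) and 19.7% (13 of 66) of P6 cells, with exact 95% intervals of 3.02 to 19.95% and 10.9 to 31.3% at P6. A single cell held 39.0% and 21.6% of the P6 sums.

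Igf2, the ligand, stood at 132 RPKM in the E10.5 capture, 71.6 and 96.1 at E11.5, 63.3, 52.4 and 99.8 at E12.5, 67.3 and 71.7 at E13.5, 40.5 and 51.7 at E16.5, and 2.98 and 1.70 at P6. The groups at P6 and before did not overlap. The mean fell 19.7-fold from E16.5 to P6, with a log2 change of -3.84 ± 0.39 and an adjusted limma p of 0.00708. The median cell was low before the mean was. The median was 51.6 and 62.6 RPKM at E13.5, 6.06 and 9.77 at E16.5, and 0 in both P6 captures. At E16.5 the highest cell held 33.1% and 27.3% of the capture's Igf2, against 5.98% and 5.80% at E13.5.

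Cdkn1c, the cell cycle inhibitor, had 253 RPKM in the E10.5 capture, 352 and 378 at E11.5, 485 and 569 in captures 1 and 3 of E12.5, 430 and 442 at E13.5, and 609 and 248 at E16.5. In the second E12.5 capture it read 2353 RPKM. At P6 it had 30.4 and 23.9 RPKM, below all earlier captures. The E16.5 captures lay far apart, and the change to P6 of -3.80 ± 0.66 had an adjusted limma p of 0.0541, just outside the threshold of 0.05. Cdkn1c reached 1 RPKM in 90.9% and 82.5% of E16.5 cells and in 38.2% and 28.8% of P6 cells.

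Mest, which encodes an enzyme of the alpha/beta hydrolase family made in mesodermal tissues, was highest in the earliest capture. It had 512 RPKM in the E10.5 capture, 278 and 307 at E11.5, 274, 264 and 241 at E12.5, 207 and 242 at E13.5, 162 and 118 at E16.5, and 32.1 and 30.0 at P6. Its fall from E16.5 was 4.51-fold, with a log2 change of -2.12 ± 0.33 and an adjusted limma p of 0.0391. The share of cells at 1 RPKM or more went from 87.3% and 67.5% to 32.7% and 30.3%.

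Peg3, a paternally expressed zinc finger protein gene, had 265 RPKM in the E10.5 capture, 332 and 312 at E11.5, 173, 114 and 337 at E12.5, 217 and 233 at E13.5, 160 and 154 at E16.5, and 39.9 and 49.4 at P6. Among H19, Igf2, Cdkn1c, Meg3, Mest and Peg3 it remained the most widely detected, at 1 RPKM or more in 67.3% and 66.7% of P6 cells. Against E16.5 the change of -1.80 ± 0.34 was not called (adjusted limma p = 0.0702), while against E12.5 the change of -2.90 ± 0.42 was (adjusted limma p = 0.0314).

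Meg3, the maternally expressed long noncoding RNA of the Dlk1 cluster on chromosome 12, had its highest means at E16.5. It had 27.3 RPKM in the E10.5 capture, 16.1 to 36.2 in the captures from E11.5 to E13.5, and 43.8 and 78.1 at E16.5. At P6 it had 7.71 and 3.52 RPKM, again below all earlier captures. The change from E16.5 was -3.25 ± 0.54 with an adjusted limma p of 0.0467, and that from E12.5 was -1.99 ± 0.66 and not called (adjusted limma p = 0.324). Its E16.5 level was 1.25 ± 0.66 above E12.5 on the log2 scale, which was not called either (adjusted limma p = 0.810).

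**Figure D2:**
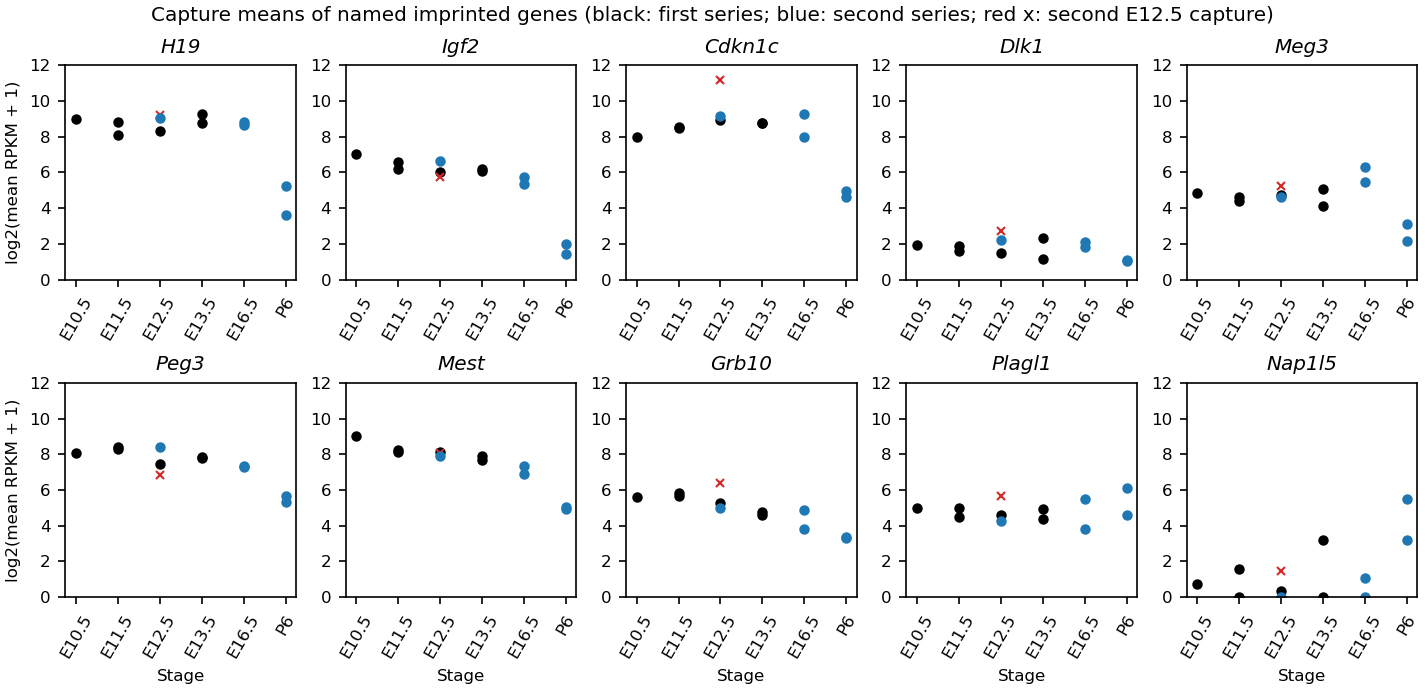
Capture means of 10 named members by stage, as log2 of the mean RPKM plus 1 (1 point per capture, black for the first series, blue for the second, red cross for the second E12.5 capture). H19, Igf2, Cdkn1c, Meg3, Peg3 and Mest drop at P6, while Plagl1 spreads widely and Nap1l5 is highest at P6.

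Of the 31 tested members, 4 were called lower at P6 than at E16.5, a share of 12.9%. Over all tested genes 0.308% were called in either direction, 0.124% lower and 0.184% higher. The same number, again 4 of 31, was called lower against E12.5, where 0.231% of all genes were called, 0.118% lower and 0.113% higher. Both comparisons use the same P6 captures. In the test of any stage difference only Igf2 was called among the members (adjusted p = 0.0334, limma's F test), against 0.0889% of all genes. These calls rest on few captures. Without the second E12.5 capture 6 members were called against E16.5, Cdkn1c and Peg3 added, and 5 against E12.5. Cdkn1c was the one added against E12.5. Without the first E12.5 capture the counts were again 6 and 5. The test of any stage difference then called 7 members, and 4 without the second E12.5 capture. Without any single one of the E11.5 or E13.5 captures only Igf2 was called against E16.5 and 0 members against E12.5. Without either E16.5 capture only Igf2 was called against E12.5, and without either P6 capture 0 members were. Without either E16.5 capture or the second P6 capture 0 were called against E16.5, and without the first P6 capture H19 and Igf2 were. The directions of H19, Igf2, Cdkn1c, Meg3, Mest and Peg3 were downward in all 21 alternatives run for P6 against E16.5.

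A count without a threshold on p set P6 against the captures of both series, the second E12.5 capture included. In 9 of the 31 tested members both P6 captures lay below all 10 earlier ones, namely H19, Igf2, Cdkn1c, Dlk1, Meg3, Peg3, Mest, Grb10 and Magel2. Magel2, listed at 0 at P6, passed the filter through fetal captures alone, and the other 8 are 25.8% of the tested members, beside 4.09% of all tested genes. Without the second E12.5 capture Rian and Slc38a4 joined, 10 members or 32.3% without Magel2, beside 5.62% of all genes. Within the second series Gnas and Impact joined as well, 12 members or 38.7%, beside 13% of all genes. In the other direction Nap1l5 alone had both P6 captures above all earlier ones, 3.23% of the members against 3.98% of all genes. Against E16.5 only, 14 members, Magel2 included, had both P6 captures below both E16.5 captures, 45.2% against 18.6% of all genes.

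Grb10 had 47.2 RPKM in the E10.5 capture, 23.0 to 83.6 in captures from E11.5 to E13.5, 12.98 and 28.96 at E16.5, and 9.15 and 8.98 at P6. Its change from E16.5 was -1.02 ± 0.51 and was not called (adjusted limma p = 0.597). Dlk1, which encodes a transmembrane inhibitor of adipogenic differentiation, was scarce throughout, at 1.25 to 5.57 RPKM before birth and 1.095 and 1.013 RPKM at P6. Its change of -0.92 ± 0.69 was not called. Magel2, of the Prader-Willi region, reached at most 4.31 RPKM in an earlier capture and is listed at 0 in all P6 cells.

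Plagl1, a zinc finger gene that regulates other imprinted genes, was not among the lower genes. Its means were 13.1 and 44.4 RPKM at E16.5 and 23.5 and 68.9 RPKM at P6. The captures of each stage thus lay further apart than the stage means, 28.7 RPKM at E16.5 and 46.2 RPKM at P6. The change was 0.71 ± 0.70 (adjusted limma p = 0.830). Impact, a regulator of translation, had 176 and 172 RPKM at E16.5 and 158 and 132 at P6. Sgce, a sarcoglycan gene, had 38.3 and 32.8 RPKM and then 39.1 and 32.6. Ndn, which encodes the growth suppressor necdin, spread from 38.8 to 148 RPKM within P6. Together with Impact and Plagl1 it was among the higher members left at P6.

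Nap1l5, a nucleosome assembly protein gene inside an intron of another gene, had the largest upward change, 3.804 ± 1.15 from E16.5, and was not called (adjusted limma p = 0.242). It had 43.3 and 8.33 RPKM at P6, 0.0125 and 1.09 at E16.5, and 8.23 in 1 E13.5 capture. The second P6 capture was thus barely above that E13.5 capture, in which a single cell held 99.9% of the sum. At P6 it reached 1 RPKM in 16.4% and 6.06% of cells.

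**Figure D3:**
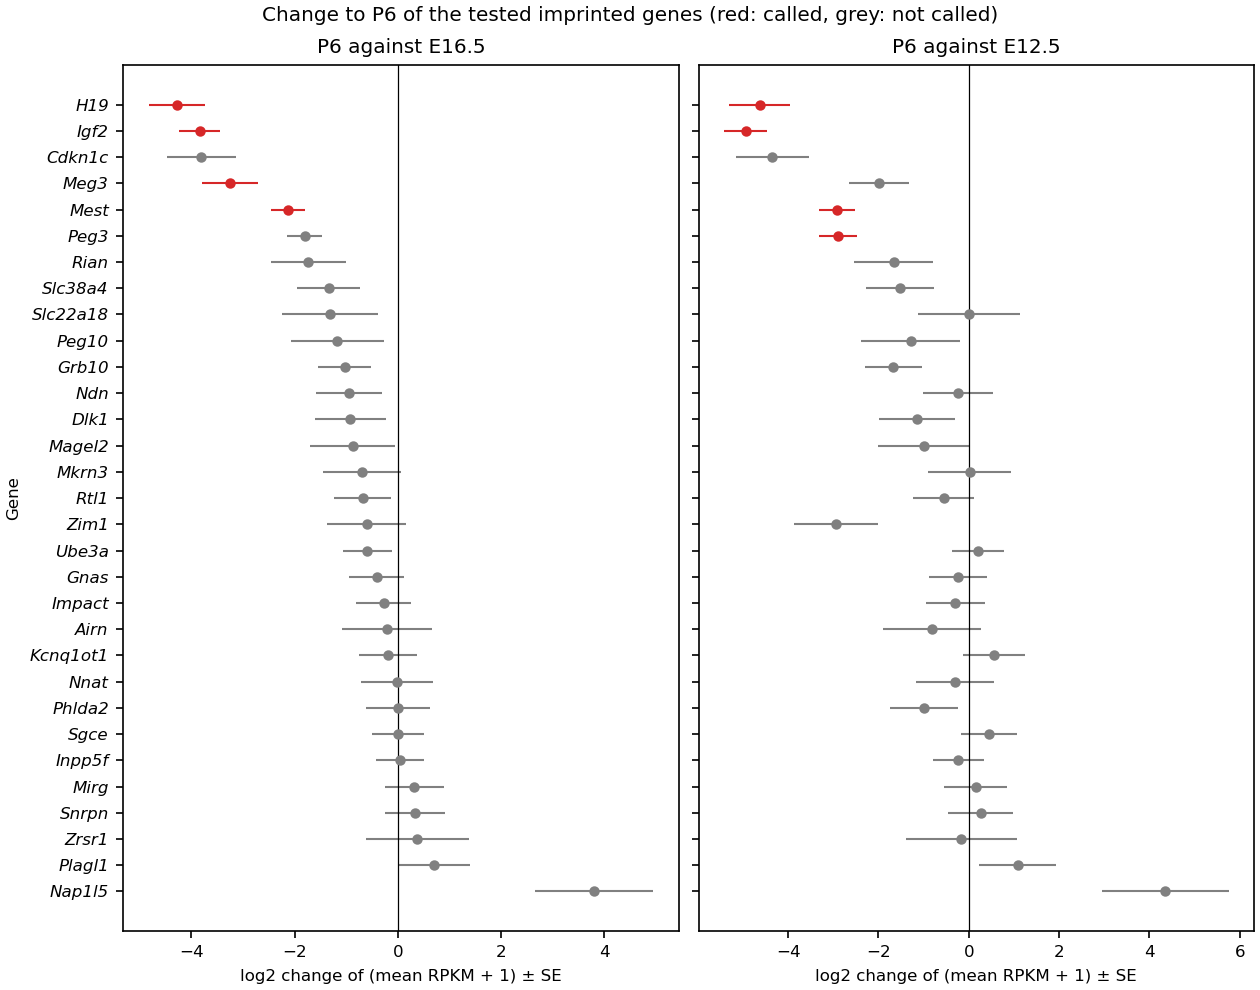
Log2 change (mean RPKM plus 1) with its standard error for the 31 tested members, P6 against E16.5 on the left and against E12.5 (capture 3) on the right, red where called. H19, Igf2, Meg3 and Mest are red on the left, H19, Igf2, Mest and Peg3 on the right, and the estimates nearest 0 on the left belong to Phlda2, Nnat, Sgce and Inpp5f.

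Of the 31 tested members, 23 were lower at P6 than at E16.5 and 7 higher, with a median log2 change of -0.68, beside -0.002 over all genes tested. The lower ones include Magel2, Mkrn3 and Slc22a18, which passed the filter through fetal captures alone and averaged 0, 0.0874 and 0 RPKM at P6. Mirg and Phlda2 passed likewise, and Mirg was higher at P6 while Phlda2 was at 0 in both stages. The parental counts that follow hold these genes too. Maternally expressed members had a median of -1.02 over 11 tested, 9 of them lower, and paternally expressed ones -0.48 over 20 tested, 14 of them lower. A second list, 50 further imprinted genes outside the panel, had 35 tested, of which 18 were higher and 16 lower, with a median of 0.01 and none called. At an unadjusted p under 0.05 limma gave 8 members, 25.8% beside 9.6% of all genes. The next lowest estimates from E16.5 were Rian at -1.73 ± 0.72 and Slc38a4 at -1.34 ± 0.61, neither called. Against E12.5 Cdkn1c at -4.35 ± 0.81 and Zim1 at -2.94 ± 0.94 had lower estimates than the called Mest (-2.92) and Peg3 (-2.90) and were not called.

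The earlier steps moved no member past the test. From E10.5 to E11.5 limma called 0 members, with 0 at an unadjusted p under 0.05 and 0.00592% of all genes called. The largest estimates were Magel2 (-1.10), Rtl1 (-0.81), Mest (-0.81), Peg10 (-0.77) and Igf2 (-0.66) downward, and Zrsr1 (1.81), Airn (1.09), Nnat (0.82), Zim1 (0.61) and Cdkn1c (0.53) upward, as log2 changes. From E11.5 to E13.5 limma called 0 members and 0 genes at all, with 0 members at an unadjusted p under 0.05. The largest were Zrsr1 (-1.55), Airn (-1.09), Grb10 (-1.06), Phlda2 (-1.06) and Nnat (-0.91), and Inpp5f (0.88), Magel2 (0.83), Nap1l5 (0.82), H19 (0.57) and Ndn (0.53). From E12.5 to E16.5 limma again called 0 members, with 3 at an unadjusted p under 0.05 and 0.00592% of all genes called. Zim1 (-2.34), Igf2 (-1.11), Peg3 (-1.10), Phlda2 (-0.999) and Mest (-0.80) had the lowest estimates, and Slc22a18 (1.32), Meg3 (1.25), Ube3a (0.79), Kcnq1ot1 (0.75) and Mkrn3 (0.72) the highest. The 3 at an unadjusted p under 0.05 were Zim1, Igf2 and Peg3, 9.68% of the members beside 6.85% of all genes.

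Members at the low end carried little information. Usp29 and Ascl2 did not pass the filter of 1 RPKM in at least 2 captures and were not tested. Ascl2, a placental transcription factor gene, was listed above 0 in the first E12.5 capture only, at 1.70 RPKM and in 1 cell. Phlda2, Slc22a18, Mkrn3, Mirg and Rtl1 each rested on 1 or a few cells in most captures.

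Single cells at P6 held fewer of these genes. H19, Igf2, Cdkn1c, Meg3, Mest and Peg3 were grouped after their values had been seen, as the 6 with the largest falls from E16.5. A lower count per P6 cell is therefore not separate from those falls, and no such count is given for genes outside the panel. A cell held on average 5.44 to 5.83 of the 6 at 1 RPKM or more in the captures up to E13.5, 5.13 and 4.88 at E16.5, and 1.96 and 1.83 at P6. All 6 were present in 50.9 to 84.9% of cells up to E13.5, in 43.6% and 35.0% at E16.5, and in 0 of 55 and 0 of 66 cells at P6, which allows shares of up to 5.45% and 4.55% (3 cells of the total, counting error only). None of them was present in 7.27% and 13.6% of P6 cells and in no cell of an earlier capture. Of all 33 members, a median of 13 per cell reached 1 RPKM in both E16.5 captures, against 9 and 8 at P6. Median depth per cell was 2.63M and 2.39M estimated reads at E16.5 and 2.56M and 1.89M at P6.

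**Figure D4:**
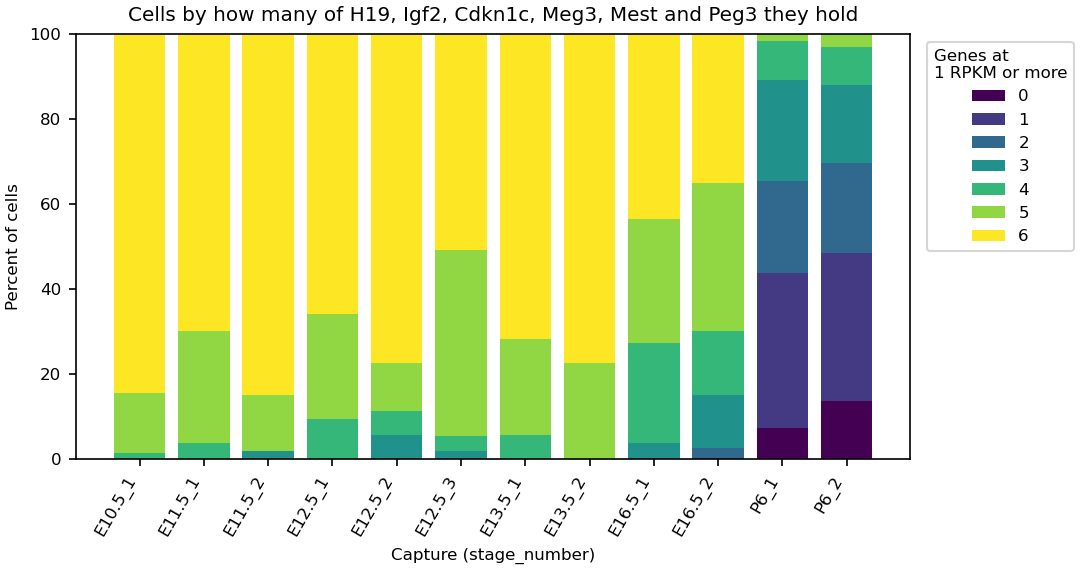
Percent of cells in each capture (bars, from 0 to 100) that hold 0 to 6 of H19, Igf2, Cdkn1c, Meg3, Mest and Peg3 at 1 RPKM or more. Cells with all 6 make up 43.6% and 35.0% at E16.5 and are missing from both P6 bars, where most cells hold 1, 2 or 3.

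The cell types in the sort also shifted between these stages. Summed granulosa markers went from 236 to 327 RPKM at E16.5 to 1098 to 2196 at P6, stromal markers from 617 to 968 to 1319 to 2354, and surface epithelium markers from 175 to 378 to 74.3 to 78.3. Germ cell markers went from 8.89 to 19.7 to 0.502 to 0.572. Steroid producing markers went from 64.4 to 101 up to 307 to 1063, immune markers from 1.33 to 3.55 up to 13.7 to 16.8, mesonephros markers from 24.5 to 29.8 down to 7.13 to 9.20, pregranulosa markers from 139 to 141 down to 86.9 to 102, and Sertoli markers from 11.0 to 15.3 down to 6.45 to 7.45. Endothelial markers, at 3.70 to 13.4 and 8.01 to 13.6, overlapped, and red cell markers were at 0 in both stages. G2 and M phase markers went from 47.5 to 143 up to 164 to 232, with 9 of 10 higher, a median log2 change of 1.03 and 0 called. S phase markers overlapped, at 230 to 283 and 227 to 289, with 5 of 10 higher. These levels moved with those of the members, and their part in it was not tested beyond the classes below. Fewer cells of a type and less RNA per cell cannot be told apart in a capture mean.

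Cells were therefore split by Foxl2, the transcription factor gene of the granulosa lineage, and Nr2f2, which encodes the stromal nuclear receptor COUP-TFII. Nr2f2 reached 1 RPKM in 76.4 to 100% of cells of a capture, so the classes were set as Foxl2 at 1 RPKM or more, and Foxl2 below 1 with Nr2f2 at 1 or more. From E13.5 on each capture gave 11 to 41 cells of the first class and 16 to 36 of the second. Many cells of the first class held Nr2f2 at 1 RPKM or more as well. These were 18 of 19 and 13 of 14 cells at E13.5, 6 of 12 and 9 of 11 at E16.5, and 31 of 34 and 32 of 41 at P6. The classes are thus set apart by Foxl2 and not by Nr2f2. By other marker genes the Foxl2-positive class was mixed at P6 and in the second E16.5 capture. Dcn, a stromal matrix gene, averaged 606 and 1134 RPKM in it at P6, and 17.6 and 404 at E16.5. Tcf21, a stromal transcription factor gene, averaged 0.441 and 137 RPKM in it at E16.5, and in the first P6 capture the granulosa enzyme gene Hsd17b1 averaged 49.0 RPKM in the Nr2f2-positive class.

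Lower values at P6 were present on both sides of this split. In Foxl2-positive cells H19 had 645 and 528 RPKM at E16.5 and 44.8 and 5.41 at P6, and in Nr2f2-positive cells 351 and 396 and then 0.133 and 15.05. Igf2 had 47.0 and 60.3 RPKM in Foxl2-positive cells at E16.5 and 0.749 and 0.116 at P6. In Nr2f2-positive cells it had 44.1 and 51.1, and then 8.66 and 4.87. Cdkn1c had 513 and 181 RPKM and then 30.1 and 19.5 in the first class, and 544 and 271 and then 40.5 and 35.2 in the second. The P6 captures lay below the E16.5 captures for these 3 genes in both classes. All 3 are among the members with the largest falls in the whole captures, which hold the same cells. This order is therefore not separate from those falls, and the share of all genes with it was not counted.

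With 3 residual degrees of freedom the class tests called 0 genes of 15965 within either class, hence 0% of all genes and 0 of the 29 members tested. At an unadjusted p under 0.05 limma gave 9 members in Foxl2-positive cells, 31% beside 10.8% of all genes, and 10 in Nr2f2-positive cells, 34.5% beside 11.2%. Within the Foxl2-positive class the lowest log2 changes were Igf2 (-5.28), H19 (-5.09), Cdkn1c (-3.60), Meg3 (-2.78) and Zim1 (-2.10), and the highest Nap1l5 (4.96), Plagl1 (2.67), Rtl1 (0.82), Slc38a4 (0.76) and Grb10 (0.01). Within the Nr2f2-positive class they were H19 (-6.45), Meg3 (-3.80), Cdkn1c (-3.31), Mest (-2.76) and Igf2 (-2.69), and Zrsr1 (1.52), Mirg (0.81), Sgce (0.73), Nap1l5 (0.55) and Inpp5f (0.43). Of 29 members 24 were lower in the first class, with a median of -0.76 beside 0.15 over all genes, and 19 in the second, with -0.64 beside -0.18. Magel2 and Mkrn3, at 0 in both classes at P6, are among the lower ones of the first class, and Magel2 among those of the second. Whether the change differed between the classes was tested as an interaction, in which limma called 0 members and 0% of all genes, with 3 members (Igf2, Rtl1 and Nap1l5) at an unadjusted p under 0.05, a share of 10.3% near the 8.5% of all genes. The lowest interaction estimates were Igf2 (-2.59), Zrsr1 (-1.67), Zim1 (-1.64), Mkrn3 (-1.55) and Sgce (-1.49), and the highest Nap1l5 (4.42), Rtl1 (2.49), Plagl1 (2.32), Slc38a4 (1.85) and Grb10 (1.52).

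Between the classes, averaged over E13.5, E16.5 and P6, limma called 0 members, with Slc38a4, Dlk1, Inpp5f and Nap1l5 at an unadjusted p under 0.05, and 0.0251% of all genes, 0.00626% lower and 0.0188% higher in Foxl2-positive cells. Those 4 were 13.8% of the members, beside 8.84% of all genes at that unadjusted p. The lowest estimates in Foxl2-positive cells were Slc38a4 (-1.47), Dlk1 (-1.20), Plagl1 (-0.91), Rian (-0.83) and Zrsr1 (-0.69), and the highest Snrpn (1.09), Inpp5f (1.08), H19 (1.08), Nap1l5 (1.011) and Mkrn3 (0.84). At P6 alone limma called 0 members and 0% of all genes, with 2 members (Igf2 and Nap1l5) at an unadjusted p under 0.05, or 6.9%, no larger a share than the 7.43% of all genes. There Igf2 (-2.43), Zrsr1 (-1.69), Peg10 (-1.42), Slc38a4 (-1.14) and Nnat (-1.08) were lowest, and Nap1l5 (3.73), H19 (2.01), Snrpn (1.33), Rtl1 (0.84) and Impact (0.74) highest. Slc38a4, an amino acid transporter gene, was lower in the Foxl2-positive class of all 6 captures, with 42.3 against 44.1, 24.4 against 34.2, 2.30 against 40.4, 9.26 against 50.6, 8.01 against 19.9 and 9.77 against 21.7 RPKM from the first E13.5 to the second P6 capture. The gap was small at E13.5 and wide at E16.5. Dlk1 and Rian were also lower in all 6, making 3 of 29 members or 10.3%, against 2.23% of all genes.

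In the 4 fetal captures H19, Igf2, Magel2 and Inpp5f were higher in Foxl2-positive cells every time, 13.8% of the members against 5.44% of all genes. Inpp5f, an inositol phosphatase gene with an imprinted variant transcript, had 58.5 and 65.3 RPKM in Foxl2-positive cells at E13.5, against 9.13 and 10.1 in Nr2f2-positive cells. At E16.5 the values were 24.7 and 23.8 against 14.7 and 14.2, and at P6 18.0 and 20.3 against 32.3 and 11.95. H19 had 900 and 478 RPKM against 467 and 412 at E13.5. Dlk1, Rian, Rtl1, Mest, Grb10 and Slc38a4 were lower in Foxl2-positive cells of the 4 fetal captures, 20.7% of the members against 11.6% of all genes. Both shares count orders near the floor. Rtl1 had 0 RPKM against 0.0177 in Nr2f2-positive cells in the first E13.5 capture, and Magel2 0.249 against 0 in the first E16.5 capture.

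Because the classes were mixed at P6, P6 cells were also divided, after the data had been seen, by whether granulosa markers (6 genes without Foxl2) or stromal markers (7 genes without Nr2f2) were higher on a log2 scale. This gave 28 and 24 granulosa-marked cells and 27 and 42 stroma-marked cells in the captures, with 4, 5, 3 and 2 of them within 1 log2 unit of the dividing line. Foxl2 reached 1 RPKM in 18 of 28 and 18 of 24 granulosa-marked and in 16 of 27 and 23 of 42 stroma-marked cells. The following values are descriptions without a test.

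Most of the RNA that remained of several members was on the stromal side. Mest had 6.04 and 3.39 RPKM in granulosa-marked cells and 59.2 and 45.2 in stroma-marked cells. Cdkn1c had 13.4 and 7.02 against 48.0 and 33.5, Grb10 2.68 and 2.84 against 15.9 and 12.49, and Slc38a4 0.116 and 0.706 against 22.1 and 21.2. Dlk1 reached 1 RPKM in 0 of 28 and 0 of 24 granulosa-marked cells, and in 37.0% and 11.9% of stroma-marked cells. A count of 0 allows up to 3 of the 28 and 3 of the 24 cells. The reverse order was seen in both captures for Nap1l5, Nnat, Snrpn, Airn and Mirg. For Airn and Mirg it rested on few cells. Airn reached 1 RPKM in 5 and 2 granulosa-marked and 2 and 2 stroma-marked cells, and Mirg in 1 and 1 against 0 and 0. The share of all genes in either order was not counted. Nap1l5 had 85.0 and 22.9 RPKM in granulosa-marked cells and is listed at 0 in all 27 and 42 stroma-marked cells, which allows up to 11.1% and 7.14% of them. Nnat, a small membrane protein gene, had 13.4 and 82.0 RPKM against 3.21 and 3.18, and Snrpn, a splicing protein gene, 5.56 and 4.05 against 1.97 and 1.07. Igf2 was low on both sides, with 3.26 and 0.00246 RPKM in granulosa-marked and 2.70 and 2.66 in stroma-marked cells.

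Genes of the IGF pathway outside the panel were measured for comparison. Of 19 listed and tested, 10 were higher and 9 lower at P6 than at E16.5, with a median of 0.32, and 1 was called. Igf2bp3, whose protein binds Igf2 and other mRNAs, had 70.4 RPKM in the E10.5 capture, 16.6 and 10.9 at E16.5, and 1.45 and 0.254 at P6. It was called lower from E16.5 (-3.05 ± 0.50, adjusted limma p = 0.0454) and from E12.5 (-4.32 ± 0.61, adjusted limma p = 0.0291). Igf1, the ligand that acts mainly after birth, had 98.6 and 125 RPKM at E16.5 and 206 and 178 at P6 and was not called. Of 13 genes that keep imprints or set DNA methylation, 11 were tested, 4 of them higher and 7 lower at P6, and limma called 0, beside 0.308% of all genes.

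Within captures, some neighbouring members varied together from cell to cell. Spearman's rho between members was taken over the cells of each of 11 captures, leaving out the shallow E12.5 capture, for members above 0 in at least 20% of its cells. The median over captures is given as a description without a p, and cells of a capture share the library run, while depth and the number of detected genes vary among them. Of 276 pairs among 24 members, the median rho was 0.03, and 11 pairs were above 0.2. The highest 4 were H19 and Igf2 (0.42), Meg3 and Rian (0.40), Dlk1 and Meg3 (0.34) and Dlk1 and Rian (0.33), each above 0 in 10 of 10 captures that could be used. Peg3 and Zim1 followed in rank 6 with 0.25, after Dlk1 and Grb10 with 0.28.

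All of these but Dlk1 and Grb10 are neighbours on a chromosome. Among the 12 pairs less than 1 Mb apart 5 were above 0.2, or 41.7%, and among the other 264 pairs 6 were, or 2.27%. Not every neighbouring pair varied together. Peg10 and Sgce, whose starts face away from each other on chromosome 6, had a median of 0.10, H19 and Cdkn1c 0.08, and Cdkn1c and Kcnq1ot1 -0.03. H19 and Igf2 are read from opposite parental copies, as are Dlk1 and Meg3, and Peg3 and Zim1, while Meg3 and Rian are both read from the maternal copy. The counting is not stated to use strand, so reads of overlapping transcripts in a cluster can be shared between rows. The annotated intervals of H19 and Igf2, of Dlk1, Meg3 and Rian, and of Peg3 and Zim1 do not overlap. Whether reads were shared between these rows was not tested.

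The H19 and Igf2 pair ranged from 0.03 in the first E12.5 capture to 0.62 in the first E11.5 capture and was 0.31 and 0.46 at E16.5. At P6 it could be taken in the first capture alone, at 0.19. Given the number of detected genes, the partial rho was 0.35, and within the classes it was 0.435 (Foxl2-positive, 4 captures) and 0.40 (Nr2f2-positive, 10 captures). Meg3 and Rian kept 0.41 given detected genes, and Dlk1 and Meg3 0.34. The lowest pairs were Dlk1 and Snrpn (-0.19) and Cdkn1c and Dlk1 (-0.14).

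**Figure D5:**
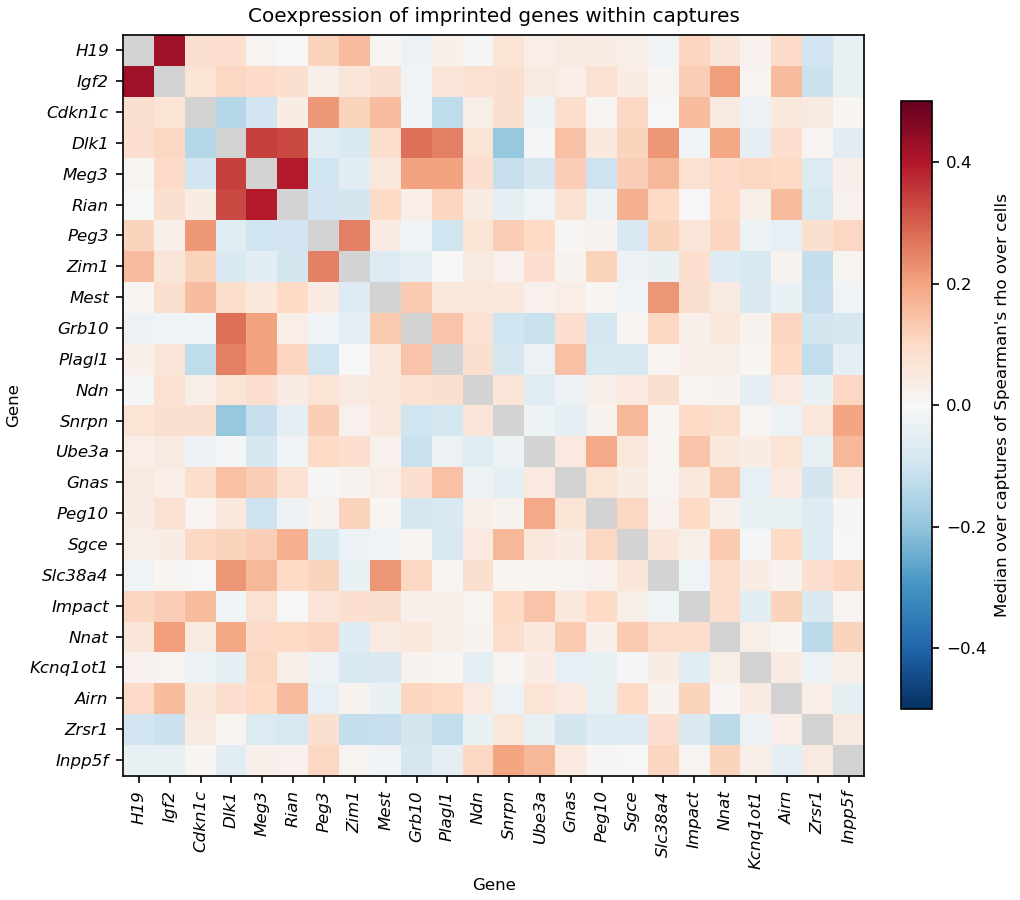
Median over captures of Spearman's rho over cells for each pair of 24 members (red positive, blue negative, grey diagonal not shown). The dark squares are H19 with Igf2 at 0.42 and the block of Dlk1, Meg3 and Rian at 0.33 to 0.40.

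H19 and Cdkn1c, the members with the highest means, were set against all 11120 genes that could be compared. The closest to H19 were Gm27483 (0.83), Mir675 (0.69) and Gm27786 (0.46), which lie inside it, then Igf2 (0.42) and Aldh3b1 (0.28). Igf2 was thus the closest gene outside the H19 interval. The closest to Cdkn1c were Ctsc (0.44), Fam129a (0.40), Chrm4 (0.39), Ppp1r16b (0.38) and Gm3235 (0.37), each usable in only 3 or 4 captures. Among members the highest with Cdkn1c was Peg3 at 0.22, and 1.81% of genes were as high, followed by Impact at 0.16 and Mest at 0.16.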

How the data were processed

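The 663 libraries were full-length polyA cDNA of single sorted cells; 1 cell sequenced a second time (r = 0.996 between its libraries) was averaged, which leaves 662. The authors deposited 1 table of RPKM values per gene and cell; the build is GRCm38.p3 (mm10) per the submitters' processing notes, and for the aligner, the counter, strand use and the cell filter the sources used here give nothing. RPKM are not counts, so no count model was used. A median of 72.5% of a cell's low values fell on multiples of 1 read within a tolerance of 0.02, which gave the depth estimates (0.148M reads per cell in the shallow capture, 1.89M to 3.20M in the others), and is too few to recover reads. No doublet call was made.

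RPKM were averaged over the cells of a capture, and log2(mean + 1) was tested with limma 3.58.1 in R 4.3.3 (trend, 7 means of stage and series, 5 residual degrees of freedom), two-sided, over the 16882 genes whose mean was 1 RPKM or more in 2 or more captures. A gene was called at a Benjamini-Hochberg adjusted p of at most 0.05 over all those genes. On the log2(RPKM + 1) scale a fold change understates the change of low genes. Classes were compared with the capture as a block (3 residual degrees of freedom, 15965 genes). The planned classes (Foxl2 without Nr2f2 and the reverse) left under 5 cells in most captures, so those used, and the P6 division by markers, were chosen after seeing the data. Intervals are exact (Clopper-Pearson), the limit given for a count of 0 is 3 counts of the total and not such an interval, and both cover counting error only. In simulated data 68% of genes changed by 4 log2 units and 0% of those changed by 2 were recovered for P6 against E16.5. Named are 9 members in every case (H19, Igf2, Cdkn1c, Dlk1, Meg3, Peg3, Mest, Grb10, Plagl1), called members, and the 5 largest changes each way. Members and lists were chosen with earlier results of these data known. Sequences are from RefSeq (GRCm38.p6), and Python 3.11.15 was used for description. Alternatives were other pseudocounts, filters and scalings, the second or first series alone, and each capture left out. Replicate numbers name captures and pair no samples across stages. All 27 date-like names of the table were left out.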

Additional observations from a re-analysis of the deposited data

How the results depend on the processing

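Leaving out 1 capture at a time gave 0 to 6 members called for P6 against E16.5, 0 to 5 for P6 against E12.5 and 0 to 7 for any stage difference. It gave 0 in each of the 3 earlier comparisons and in the class comparisons that could still be fitted. For P6 against E16.5, no filter on low values left 2 (Igf2 and Mest), and the second series alone left 0. For any stage difference, a filter of 1 RPKM in 1 capture, one of 10 RPKM in 2 captures, and no filter each gave 3, and the mean of log2 values over cells gave 6. For E16.5 against E12.5 the second series alone gave 1, Phlda2, which was at 0 in all E16.5 cells. The count of members with both P6 captures below all earlier ones, 9, was 11 without the second E12.5 capture and 13 within the second series, alternatives chosen after seeing the data. The causes were not tested. The log2 change of Plagl1 from E16.5 to P6, 0.71, ranged from -0.13 (without the first E16.5 capture) to 1.55 with 1 capture left out, and was -0.05 without the second P6 capture.

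The median of all genes for P6 against E12.5 was -0.10, and moved to -0.12 when cells were rescaled to 1 total. The class comparisons called 0 members without the replicate block as with it, and at each other setting run. The planned classes of cells with Foxl2 or Nr2f2 alone were not run, for want of cells. Each stage has at most 3 captures, and no depth was available from the files beyond the estimate.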
